A study of Homo sapiens with 29 samples.

Results

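INO80 and RUVBL2 occupancy were compared by chromatin immunoprecipitation and sequencing in Huh7, a human liver cancer cell line. The members were all 18625 peaks of the 2 deposited Huh7 lists for these proteins, of 88318 peaks in the 7 lists used. The INO80 list held 15303 peaks and the RUVBL2 list 3322. A peak was placed in the shared class when at least 1 bp of it lay under a peak of the other list, and otherwise in the class of its own factor alone. The INO80 peaks comprised 2594 with RUVBL2 and 12709 alone, and the RUVBL2 peaks 2680 with INO80 and 642 alone. A coding gene was assigned a factor when a peak lay within 1 kb of one of its GENCODE coding starts on hg19.

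All Huh7 cells were untreated and unmodified, grown in DMEM with fetal bovine serum for fewer than 10 passages and fixed with 0.3% formaldehyde for 30 min. INO80 was precipitated with an abcam antibody and RUVBL2 with a bethyl antibody, and the labels give 2 libraries for each and 2 of input chromatin. The labels do not say whether the libraries came from separate cultures. MCRS1 (protein-tech antibody) and YY1 (santa cruz antibody), each with 2 Huh7 libraries, and INO80, RUVBL2 and RUVBL1 in the liver cell line HepG2 gave the other lists.

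INO80 is the ATPase of a chromatin remodelling complex that slides nucleosomes and evicts or exchanges histone H2A variants, and it is found at the nucleosome-free starts of many genes. RUVBL2, with its partner RUVBL1, forms an AAA+ ATPase ring that is a core part of the INO80 complex. The same ring also belongs to the SRCAP and TIP60 complexes, which handle H2A.Z and histone acetylation, and to the R2TP co-chaperone, which helps assemble polymerases, kinases of the PIKK family and nucleolar ribonucleoproteins. MCRS1 and YY1 are further proteins found with the INO80 complex, and YY1 binds DNA directly.

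The deposited lists give positions only, with no height, and 1 list per factor. There was therefore no replicate error and no test, and the depth behind a peak is unknown. The 95% intervals below are Wilson intervals for shares and Newcombe intervals for differences, and cover the number of peaks counted only. "Alone" means that no peak of the other factor was listed there, which does not show that the protein was absent. The check of the cell type used the same lists: of 11 hepatocyte markers, 4 held both factors at a start, TF and APOB among them, HNF4A held INO80 alone and 6 held neither. None of 5 endothelial markers counted, of 6 planned, and none of 6 fibroblast and stellate markers held either factor. CD14, of 6 immune markers, and EPCAM and SOX9, of 5 cholangiocyte markers, held INO80 alone.

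The sequences below show what DNA lay under peaks of each class. They are the stretches outside annotated exons inside the peak and within 200 bp about its centre, read from hg19 on the strand of the gene. Capitals mark matches, on either strand, to the letters of known promoter factors: AANATGGC (YY1), CCGGAAG (ETS), GCATGCGC (NRF1), GGGCGGG (SP/KLF), CCAAT (NFY), CACGTG (E-box) and TCTCGCGA (ZBTB33). The letters TATAAA of the core promoter box, TGANTCA of the AP-1 factors, TGACGTCA of the cyclic AMP response factors, TGTTTAC of the FOXA factors, CAAAGTCCA of HNF4A and CCACNAGG of CTCF were searched in the same way. HNRNPR, RPS19 and CEBPG have the narrowest RUVBL2 peaks with such a stretch among the RNA-binding, ribosomal and stress response genes with both factors. MCM5 and DMAP1 were chosen after the search, because their RUVBL2 peaks hold the YY1 and the ETS letters. They lie at chr1:23670559-23670703 (minus strand), chr19:42364012-42364160, chr19:33864132-33864331, chr22:35795726-35795925 and chr1:44679014-44679126 (all plus strand).
HNRNPR: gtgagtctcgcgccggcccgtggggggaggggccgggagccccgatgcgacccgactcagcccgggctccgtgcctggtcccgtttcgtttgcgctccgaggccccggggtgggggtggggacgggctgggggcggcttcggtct
RPS19: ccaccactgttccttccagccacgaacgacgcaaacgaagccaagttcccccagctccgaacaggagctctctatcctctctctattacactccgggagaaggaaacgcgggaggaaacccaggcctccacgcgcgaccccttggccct
CEBPG: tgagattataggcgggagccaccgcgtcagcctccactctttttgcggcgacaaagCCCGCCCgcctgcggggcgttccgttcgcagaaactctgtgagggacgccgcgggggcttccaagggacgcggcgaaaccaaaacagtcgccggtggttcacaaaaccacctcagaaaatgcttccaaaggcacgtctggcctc
MCM5: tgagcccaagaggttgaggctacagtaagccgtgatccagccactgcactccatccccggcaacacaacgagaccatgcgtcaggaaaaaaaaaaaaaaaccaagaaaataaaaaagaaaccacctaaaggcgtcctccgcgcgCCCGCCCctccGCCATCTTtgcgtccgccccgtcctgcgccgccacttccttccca
DMAP1: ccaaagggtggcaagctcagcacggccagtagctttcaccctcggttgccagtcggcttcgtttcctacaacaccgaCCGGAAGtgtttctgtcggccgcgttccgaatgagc

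Where INO80 was listed alone, ATP5F1C of the ATP synthase, MCRS1 of the INO80 complex and the forkhead gene FOXE1 have the narrowest peaks of their lists with such a stretch. NOP58, a nucleolar protein gene, was chosen because its INO80 peak holds the YY1 letters. The stretches lie at chr10:7829964-7830109 (plus strand), chr12:49961657-49961816 (minus strand), chr9:100614491-100614690 and chr2:203130756-203130955 (both plus strand).
ATP5F1C: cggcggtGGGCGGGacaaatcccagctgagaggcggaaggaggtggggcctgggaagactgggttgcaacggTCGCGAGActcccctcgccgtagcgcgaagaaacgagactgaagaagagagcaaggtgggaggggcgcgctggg
MCRS1: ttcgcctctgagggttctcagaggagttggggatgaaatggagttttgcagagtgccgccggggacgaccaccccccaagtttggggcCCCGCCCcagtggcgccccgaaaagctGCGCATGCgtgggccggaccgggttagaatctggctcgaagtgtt
FOXE1: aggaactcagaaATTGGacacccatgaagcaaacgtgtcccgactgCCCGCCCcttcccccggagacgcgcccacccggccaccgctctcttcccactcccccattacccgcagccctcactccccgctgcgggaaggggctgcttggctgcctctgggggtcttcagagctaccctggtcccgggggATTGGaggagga
NOP58: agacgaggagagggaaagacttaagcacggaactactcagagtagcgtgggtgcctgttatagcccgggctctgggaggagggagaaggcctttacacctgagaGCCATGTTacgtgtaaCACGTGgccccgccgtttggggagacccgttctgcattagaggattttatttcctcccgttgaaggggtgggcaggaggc

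Of the 5 listed genes with RUVBL2 alone, FOSB and POLD1 have a stretch of enough length outside exons, at chr19:45972225-45972412 and chr19:50887648-50887825, both on the plus strand. Neither stretch holds any of the letters searched.
FOSB: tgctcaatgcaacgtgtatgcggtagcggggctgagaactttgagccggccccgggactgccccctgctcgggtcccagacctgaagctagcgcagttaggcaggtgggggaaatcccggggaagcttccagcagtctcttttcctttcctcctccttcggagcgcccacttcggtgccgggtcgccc
POLD1: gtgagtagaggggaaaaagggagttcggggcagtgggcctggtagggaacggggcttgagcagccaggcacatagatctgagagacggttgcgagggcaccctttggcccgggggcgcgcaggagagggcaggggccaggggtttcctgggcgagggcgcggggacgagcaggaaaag

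RUVBL2 peaks were mostly narrow and sat within broader INO80 peaks. Of INO80 peaks 17% overlapped RUVBL2 (95% interval 16.4 to 17.6), and of RUVBL2 peaks 80.7% overlapped INO80 (79.3 to 82.0). Among the 2680 RUVBL2 peaks with INO80, 1871 (69.8%) lay wholly inside an INO80 peak, while 147 INO80 peaks lay wholly inside a RUVBL2 peak. The shared bases made up 77.4% of all RUVBL2 peak length and 12.5% of all INO80 peak length. In the 2724 overlapping pairs the INO80 peak was a median 2.55 times as wide, although RUVBL2 was the wider in 372 pairs (13.7%). Their centres were a median 174 bp apart. Several RUVBL2 peaks could share one INO80 peak: 117 INO80 peaks held 2 or more, and the most under a single peak was 5.

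INO80 peaks with RUVBL2 were wider than those without, at gene starts and away from them. Their median width was 954 bp against 367 bp for INO80 alone. At coding starts the medians were 988 and 467 bp, and elsewhere 822 and 290 bp. RUVBL2 peaks without INO80 were the narrowest class, with a median of 193.5 bp against 283.5 bp with INO80, and 72 of the 642 (11.2%) had the minimum width in the list, 147 bp. The middle 50% of the INO80 classes at coding starts overlapped, from 590 to 1578.75 bp with RUVBL2 and from 236 to 883 bp alone.

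**Figure D1:**
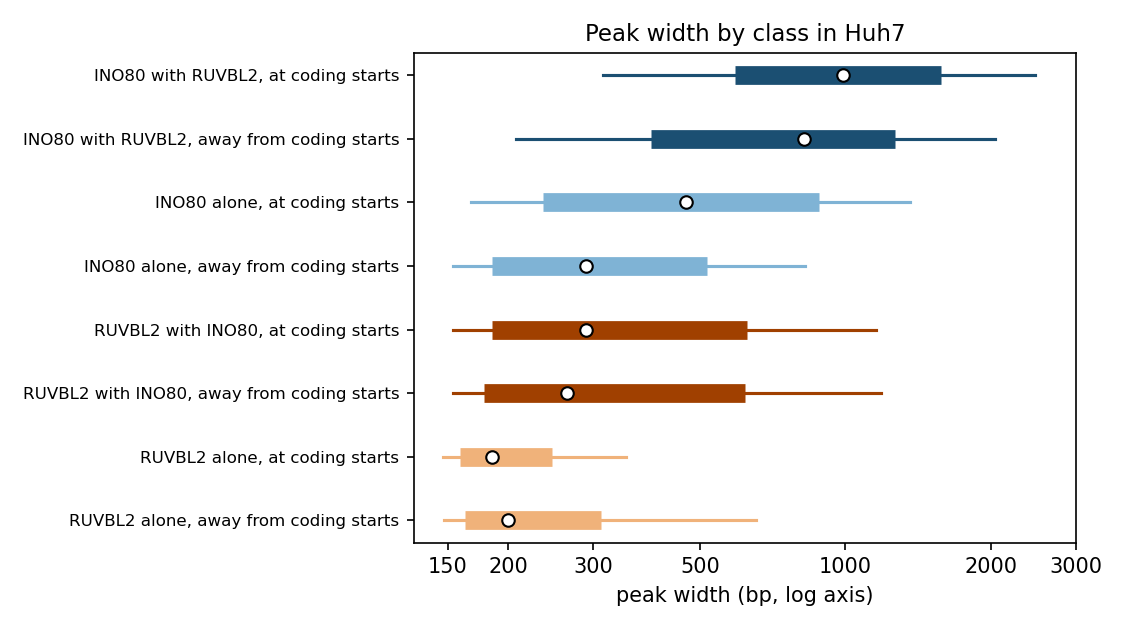
Peak width in bp on a log axis for the 4 classes of Huh7 peak, at coding starts and away from them. Circles are medians, thick bars the middle 50% and thin lines the 10th to 90th percentile of peaks; INO80 peaks with RUVBL2 have medians of 988 and 822 bp, above the 467 and 290 bp of INO80 alone.

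The share of INO80 peaks with RUVBL2 grew with INO80 peak width in every step. It was 4.25% in the narrowest quintile (147 to 198 bp), then 6.94%, 11.4% and 21.7%, and 40.4% in the widest quintile (991 to 10666 bp). At coding starts it went from 4.97% to 39.4%. Away from them it went from 3.61% to 44.6% (40.6 to 48.8), and the intervals of the widest peaks at starts and away from them overlapped. A wider peak has more room for an overlap. With all widths made equal at 200 bp, 9.78% of INO80 peaks and 45.1% of RUVBL2 peaks met. That count was not split by the original width, so it does not bear on the rise across quintiles.

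**Figure D2:**
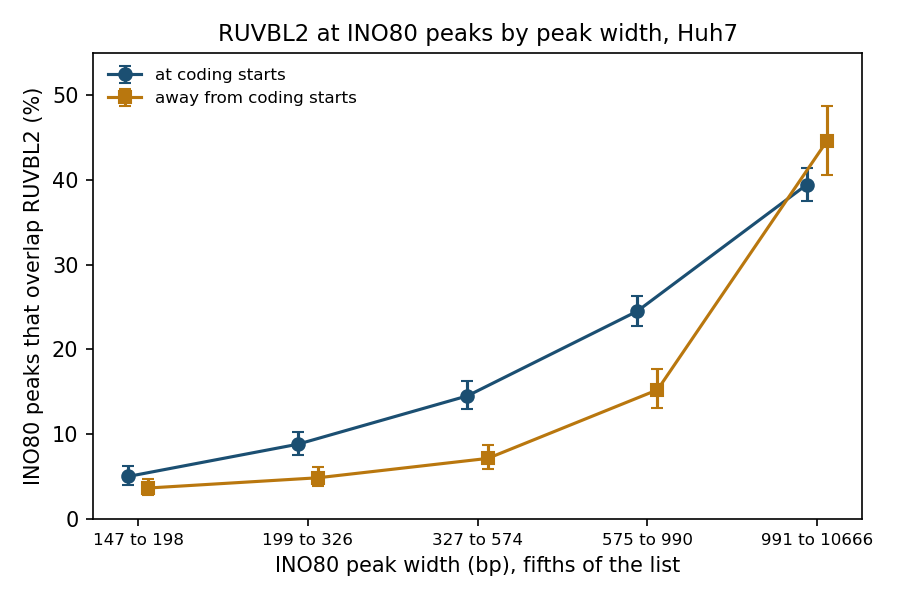
Share of Huh7 INO80 peaks that overlap a RUVBL2 peak, in % with 95% Wilson intervals, by quintiles of INO80 peak width in bp, for peaks at coding starts and away from them. Both lines climb from under 5% in the narrowest quintile to 39.4% and 44.6% in the widest.

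RUVBL2 peaks alone often lay close to an INO80 peak, whereas INO80 peaks alone were mostly far from any RUVBL2 peak. The median gap from a RUVBL2-alone peak to the nearest INO80 peak was 2911.5 bp, and 244 of 642 (38.0%) were within 1 kb. For INO80 alone the median gap to RUVBL2 was 277057 bp, and 382 of 12709 (3.01%) were within 1 kb. The RUVBL2 list is much the shorter, so its peaks are farther from any given place.

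The classes differed in the kind of place they took. A coding start lay within 1 kb of 76.6% of INO80 peaks with RUVBL2 and of 59.1% of INO80 peaks alone, a difference of 17.5 percentage points (15.6 to 19.3). That difference was 5.47 points as the mean within quintiles of INO80 width, and -2.54 points (-5.31 to 0.17) among the 3322 widest INO80 peaks, so it moved with peak width. For RUVBL2 peaks the share at coding starts was 74.3% with INO80 and 44.5% alone. Introns held 18.2% of INO80-alone peaks and 6.17% of those with RUVBL2. Exons held 16.5% of RUVBL2-alone peaks (13.8 to 19.6), against 2.84% of RUVBL2 peaks with INO80 and 2.29% of INO80-alone peaks.

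RUVBL2-alone peaks inside genes lay in genes whose own start held both factors more often than INO80-alone peaks did. Of 217 such peaks away from any coding start and inside a single coding gene, 123 (56.7%, 50.03 to 63.1) were in genes with both factors at a start. The share was 16.8% (15.2 to 18.4) of 2092 INO80-alone peaks in the same kind of place, 42.6% (36.2 to 49.3) of 216 INO80 peaks with RUVBL2 and 43.2% (37.4 to 49.1) of 271 RUVBL2 peaks with INO80. Genes with both factors make up 8.69% of the length of coding genes. The genes holding the RUVBL2-alone peaks were shorter, with a median length of 17319 bp against 109970 bp. In genes under 20 kb the shares were 67.5% of 126 and 24.9% of 293, in genes of 20 to 100 kb they were 45.6% of 79 and 22.1% of 697, and in genes of 100 kb or more 16.7% of 12 and 11.3% of 1102. The RUVBL2-alone peaks lay a median 71.2% of the way along the gene, against 43.0% for INO80 alone, and a gap of this direction was seen in each of the 3 classes of gene length (72.8% and 55.1%, 69.7% and 38.4%, 67.1% and 42.9%, the last with 12 RUVBL2 peaks). Of these RUVBL2-alone peaks 54 (24.9%) were within 1 kb of the gene's end. In genes under 20 kb the late position was common to all classes with RUVBL2: the medians were 79.7% for INO80 with RUVBL2, 70.5% for RUVBL2 with INO80 and 72.8% for RUVBL2 alone, and 40%, 33.3% and 32.5% lay within 1 kb of the end.

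Most of the widest RUVBL2-alone peaks also lay inside genes. At chr17:80202657-80207561 a peak of 4905 bp covered part of CSNK1D, a casein kinase gene, and SLC16A3, a lactate exporter gene, 9007 bp from the nearest coding start. Others lay in IMPDH2 (guanine nucleotide synthesis, 2270 bp), CDK10 and SPATA2L (1895 bp), PTBP1 (a splicing repressor, 1461 bp), FASN (fatty acid synthase, 1392 bp) and RNF123 and GMPPB (1374 bp). Of the 10 widest, NPB (2336 bp) and CCDC183 (1318 bp) had the peak at a coding start, and 1 of 1416 bp lay 4444 bp from the start of HCN2. YY1 was listed at all 10, MCRS1 at the IMPDH2 peak alone, and RUVBL2 in HepG2 at 7.

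The widest shared peaks lay at housekeeping genes, inducible genes and long noncoding RNAs, among others. The widest RUVBL2 peak, 13328 bp at chr19:1248063-1261390, ran over CIRBP, a cold-inducible RNA-binding protein gene, and MIDN, and covered 4 INO80 peaks of at most 5175 bp. EGR1, an immediate-early transcription factor gene, held a RUVBL2 peak of 6607 bp over 3 INO80 peaks of at most 3034 bp. TPI1 of glycolysis, with SPSB2 and LRRC23 (6135 bp), RPL13 (6117 bp), APRT (5742 bp), ARHGDIA (5371 bp) and the SLC29A2 region (6635 bp) also had a RUVBL2 peak wider than the INO80 peaks under it. At RCC1 (5411 and 5868 bp), ACTB (5291 and 6216 bp) and the long noncoding RNA NEAT1 (5699 and 6572 bp) the RUVBL2 and INO80 peaks were of like width. Wide INO80 peaks could also hold little RUVBL2. PDGFA, a growth factor gene, had 6856 bp of INO80 and a single RUVBL2 peak of 181 bp, and TGIF1 5868 bp and RUVBL2 peaks of at most 241 bp. TNRC18 had the widest INO80 peak (10666 bp) with 4 RUVBL2 peaks of at most 1206 bp, and the noncoding RNA MALAT1 10026 bp with 5 of at most 1909 bp. LRRC75A with SNHG29 (5878 bp) and GAPDH (5713 bp) complete the 10 widest.

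The widest INO80 peaks without RUVBL2 lay at coding starts in 9 of 10 places. LHX4, a LIM homeobox gene, had an INO80 peak of 7128 bp, 267002 bp from any RUVBL2 peak. FOXP2 (5424 bp), MN1 (5244 bp), RFX4 (5084 bp), FLRT2 (4984 bp), LRRC26 with TMEM210 (4796 bp), MYC (4449 bp), FOSL2 (4236 bp) and the hedgehog ligand gene DHH (4129 bp) were also among the 10 widest. INO80 was listed at all 10 places in HepG2 also, and RUVBL2 in HepG2 at 4 of them, those of LRRC26, MYC and FOSL2 included.

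At genes, 2359 of 19785 coding genes (11.9%) held both factors at a start, 7077 (35.8%) INO80 alone, 144 (0.728%) RUVBL2 alone and 10205 neither. RUVBL2 was thus at 25% (24.1 to 25.9) of genes with INO80, and INO80 at 94.2% (93.3 to 95.1) of genes with RUVBL2. At 153 of the 2359 genes the factors' peaks did not overlap each other. At 46 of the 7077 genes called INO80 alone the INO80 peak overlapped a RUVBL2 peak farther than 1 kb from a start. An opposite-strand coding start lay within 1 kb of 19.4% of starts with both factors (17.8 to 21.01), 13.9% with INO80 alone (13.1 to 14.7), 10.6% with RUVBL2 alone (6.51 to 16.7) and 5.01% with neither, so divergent gene pairs were most frequent where both were found.

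Where a gene with both factors had 1 peak of each near its canonical start (1807 genes), the median difference between the centres was near 0, with a wide spread. The INO80 centre was a median 32 bp and the RUVBL2 centre 58 bp downstream of the start, and RUVBL2 minus INO80 was -1 bp (middle 50% from -164.5 to 156.5). The INO80 peak reached from -468 to 486 bp relative to the start, by medians, and the RUVBL2 peak from -167 to 223 bp. The INO80-alone peaks were centred a median 83 bp downstream (5967 genes) and the RUVBL2-alone peaks 80 bp (133 genes). RUVBL2 centres were gathered between 100 and 200 bp downstream, which held 17.8% of those at genes with both and 27.1% of those alone, against 10.8% of INO80 centres at genes with both and 13.8% of INO80 centres alone. At the 191 genes where RUVBL2 was the wider, it passed the INO80 peak on the downstream side at 140 (73.3%) and on the upstream side at 95 (49.7%). Passing on at least 1 side follows there from the choice of genes. At the 1615 genes where INO80 was the wider, RUVBL2 passed it downstream at 176 (10.9%) and upstream at 158 (9.78%).

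**Figure D3:**
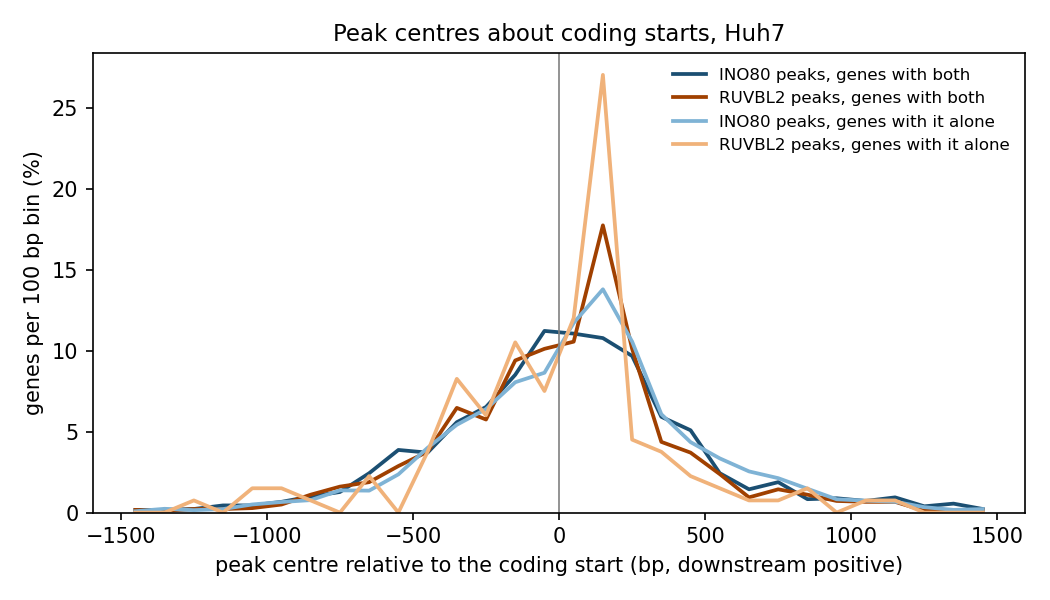
Distance in bp from the canonical coding start to the peak centre, with downstream positive, as % of genes per 100 bp bin, for 1807 genes with 1 peak of each factor, 5967 with INO80 alone and 133 with RUVBL2 alone. The bin from 100 to 200 bp downstream holds 27.1% of RUVBL2-alone peaks and 17.8% of RUVBL2 peaks at genes with both.

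The other subunits listed in Huh7 separated the classes. YY1 was at 98.3% of INO80 peaks with RUVBL2 and 63.0% of those alone, 35.3 points apart (34.3 to 36.3). MCRS1 was at 73.7% and 23.2%, 50.5 points apart (48.6 to 52.3). Within quintiles of INO80 width the mean differences were 26.6 points for YY1 and 41.9 for MCRS1. With all peaks set to 200 bp they were 20.5 and 36.7. Read the other way, RUVBL2 was at 42.0% of INO80 peaks with both YY1 and MCRS1, at 11% of those with YY1 only, at 7.67% of the 378 with MCRS1 only, and at 15 of 4373 (0.343%, 0.208 to 0.565) of those with neither. Of RUVBL2 peaks, YY1 was at 97.2% of those with INO80 and 85.7% of those alone (82.7 to 88.2). MCRS1 was at 66.8% and 8.88% (6.92 to 11.3).

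Places with both factors in Huh7 were listed more often in HepG2 too. INO80 in HepG2 was listed at 92.8% of Huh7 INO80 peaks with RUVBL2 and 70.7% of those alone, 22.1 points apart (20.8 to 23.3), but 9.84 points within quintiles of width and 4.18 among the 3322 widest. RUVBL2 in HepG2 was at 81.8% and 32.6%, and RUVBL1 in HepG2, its ring partner, at 47.6% and 13.9%. Of the 642 RUVBL2-alone peaks, 363 (56.5%) met an INO80 peak in HepG2, where the INO80 list held 23665 peaks and the RUVBL2 list 12936. By gene, 89.0% of Huh7 genes with both, 56.0% of those with INO80 alone, 75.7% of those with RUVBL2 alone and 14.5% of those with neither held both in HepG2. Of the 144 genes with RUVBL2 alone, 5 held RUVBL2 alone in HepG2 also.

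**Figure D4:**
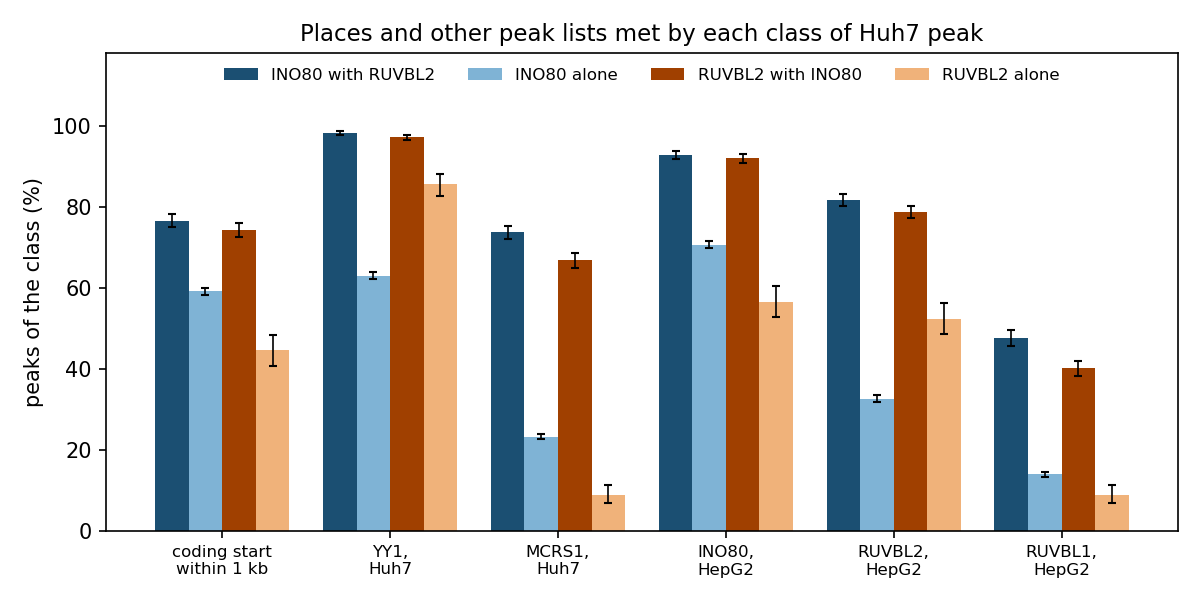
Share of each class of Huh7 peak, in % with 95% Wilson intervals, within 1 kb of a coding start or overlapping peaks of YY1 and MCRS1 in Huh7 and of INO80, RUVBL2 and RUVBL1 in HepG2. YY1 is at 85.7% of RUVBL2-alone peaks and MCRS1 at 8.88%, while INO80 peaks with RUVBL2 have 98.3% and 73.7%.

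The letters under the peaks were counted for each class; the printed stretches of MCM5, DMAP1 and NOP58 were chosen for their letters and do not bear on these shares. In 200 bp about the peak centre at coding starts, AANATGGC was in 7.85% of INO80 peaks with RUVBL2 (6.75 to 9.12), 6.03% of INO80 peaks alone (5.51 to 6.59) and 1 of 286 RUVBL2-alone peaks (0.35%, 0.062 to 1.95). Centred on the RUVBL2 peak, the shared class held it in 5.93% (4.97 to 7.05), so the share with both factors was not above that of INO80 alone in every centring. It was in 7.10% of 19515 canonical coding starts. RUVBL2-alone peaks at starts overlapped YY1 peaks in 86.7% of cases while their centres held these letters in 0.35%. The letters were much rarer than YY1 peaks in the other classes too. The values were 99.0% and 7.85% for INO80 with RUVBL2, and 67.9% and 6.03% for INO80 alone. CCGGAAG was in 11.5% (10.2 to 12.96), 6.68% (6.14 to 7.27) and 6.64% (4.29 to 10.1) of the same classes, in 12.3% (10.9 to 13.8) of the shared class centred on RUVBL2, and in 11.3% of starts. Away from coding starts AANATGGC was in 9.08% of INO80-alone peaks (8.33 to 9.89), 3.29% of those with RUVBL2 (2.14 to 5.03) and 3.19% of the shared class centred on RUVBL2 (2.12 to 4.79). Median widths there were 290, 822 and 265 bp in that order, so the 200 bp window covered a smaller part of the INO80 peaks with RUVBL2. GGGCGGG was in 28.9%, 24.5% and 36.7% of the classes at starts and in 38.4% of all starts. Median GC content there was 66.5%, 66.0% and 72.75%, against 66.5% at all starts. GC-rich letters are met more often in GC-rich DNA, and letters with many A and T, such as AANATGGC, CCAAT and TATAAA, less often. Away from starts, the RUVBL2-alone windows had the lowest ratio of observed to expected CpG, 0.36 against 0.61 for both INO80 classes. CCAAT was in 16.5%, 13.6% and 7.69% of the classes at starts and in 25.2% of all starts, and TATAAA in 2.32%, 1.98% and 1.05% against 6.56%. For every motif here the windows of all starts were centred on the start itself, and those of the classes on the peak centre. They do not cover the same place about the start, so these shares are not like for like, and a difference between them was not tested. The other 8 motifs were each in at most 5.59% of any of these classes at starts. A window without the letters shows only that they are not within it.

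The genes of the complexes themselves were held in part. Of 16 genes of the INO80 complex, 4 held both factors (25%), 8 INO80 alone (50%) and 4 neither (25%), beside 11.9%, 35.8% and 51.6% of all coding genes. The both class comprised INO80B (INO80 peak 501 bp, RUVBL2 peak 188 bp), TFPT (200 and 189 bp), RUVBL1 (523 and 595 bp) and the actin gene ACTB. INO80 alone was at INO80 itself (1073 bp), INO80C (356 bp), INO80D (526 bp), INO80E (1018 bp), ACTL6A (366 bp), YY1 (167 bp), MCRS1 (347 bp) and UCHL5 (1219 bp). RUVBL2, ACTR5, ACTR8 and NFRKB held neither. RUVBL2 also held neither in HepG2, while ACTR5, ACTR8 and NFRKB held both there.

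Of 10 genes of the SRCAP complex, 5 (50%) held both, beside 11.9% of all coding genes. They were SRCAP, its ATPase (1784 and 1457 bp), DMAP1 (420 and 232 bp), YEATS4 (1197 and 490 bp), RUVBL1 and ACTB. ZNHIT1, ACTR6 and ACTL6A held INO80 alone and VPS72 and RUVBL2 neither. Of 19 genes of the TIP60 complex, 9 (47.4%) held both, and these included the acetyltransferase KAT5 (285 and 162 bp), EPC1 (2234 and 965 bp), EPC2 (2047 and 742 bp), ING3 (1089 and 160 bp) and MORF4L1 (3805 and 858 bp) beside the 4 shared with SRCAP. At EPC1 the RUVBL2 peak lay inside another INO80 peak, of 1626 bp, and the 2234 bp INO80 peak overlapped no RUVBL2 peak. MORF4L2, MRGBP, BRD8, MBTD1, MEAF6 and ACTL6A held INO80 alone, and EP400, TRRAP, VPS72 and RUVBL2 neither. Over all coding genes 11.9% held both and 35.8% INO80 alone. Among genes with INO80, RUVBL2 was at 5 of 8 SRCAP genes (62.5%, 30.6 to 86.3) and 9 of 15 TIP60 genes (60%, 35.7 to 80.2). That share was 25% over all coding genes.

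Of 33 genes of R2TP and its clients, 8 held both (24.2%), 15 INO80 alone (45.5%) and 9 neither (27.3%), beside the same 11.9%, 35.8% and 51.6%. The both class took in the client kinases MTOR (1123 and 243 bp), PRKDC (1168 and 1289 bp) and SMG1 (177 and 159 bp), the polymerase subunit POLR2A (1679 and 782 bp), the chaperone HSP90AB1 (1735 and 1553 bp), NOP56 (2242 and 1446 bp), NAF1 (1076 and 160 bp) and RUVBL1. The INO80 and RUVBL2 peaks of SMG1 did not overlap each other. INO80 alone was at PIH1D1, URI1, PFDN2, PFDN6, DNAAF10, HSP90AA1, TTI1, TTI2, ATM, ATR, NOP58, FBL, SNU13, NUFIP1 and DKC1, with peaks from 199 bp (PFDN6) to 1420 bp (TTI2). PDRG1 held RUVBL2 alone (252 bp, chr20:30539588-30539839). RPAP3, UXT, POLR2E, TELO2, TRRAP, ZNHIT3, ZNHIT6, SHQ1 and RUVBL2 held neither.

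Among the other lists, the 4 with the largest share of both were the histone, SR and hnRNP, integrated stress response and ribosomal protein genes. Beside the 11.9% of all coding genes, the share with both was 29 of 30 replication-dependent histone genes, 29 of 35 SR and hnRNP genes, 15 of 22 genes of the integrated stress response and 51 of 79 cytosolic ribosomal protein genes. The histone genes sit in clusters and share peaks, so the 29 rested on 23 INO80 and 23 RUVBL2 peaks. Their widest RUVBL2 peaks were at H2AC18 (4548 bp) and at the pair H2AC6 and H2BC4 (3917 bp), H3C12 held neither, and H2BC7 and H2BC8 were not matched to the annotation. Copies of these genes are nearly identical, and no source used here states how reads that fit several places were treated.

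The SR and hnRNP proteins steer splicing and carry RNA. After CIRBP, the widest RUVBL2 peaks of this list were at PTBP1 (2232 bp) and HNRNPH1 (1526 bp). HNRNPC (2822 bp), HNRNPA0 (2431 bp) and TAF15 (994 bp) had the widest INO80 peaks without RUVBL2, and SRSF9 alone held neither. Every ribosomal protein gene held INO80. RPL13 (6117 bp), RPS2 (4120 bp) and RPL8 (2530 bp) had the widest RUVBL2 peaks, and RPL24 (3240 bp), RPL23 (1590 bp) and RPL14 (1550 bp) the widest INO80 peaks alone. Of the translation factors, 17 of 39 held both, led by the elongation factor EEF2 (2242 bp), EIF1 (1638 bp) and EIF4A2 (1540 bp), and 16 INO80 alone, led by the cap-binding EIF4E (1806 bp), EEF1G (1627 bp) and EIF2S1 (887 bp). The translation factor shares were 43.6% with both and 41.0% with INO80 alone, beside 11.9% and 35.8% of all coding genes. EIF4A3 (240 bp, chr17:78120612-78120851) and EIF4G1 (166 bp, chr3:184033840-184034005) held RUVBL2 alone.

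Stress response and immediate-early genes held both at more than 50% of their members, chaperone and glycolysis genes at 37.9% and 40%. Over all coding genes 11.9% held both and 35.8% INO80 alone. Among genes with INO80, RUVBL2 was at 15 of 21 stress response (71.4%, 50.04 to 86.2) and 16 of 26 immediate-early genes (61.5%, 42.5 to 77.6). It was at 11 of 27 chaperone (40.7%, 24.5 to 59.3) and 8 of 14 glycolysis genes (57.1%, 32.6 to 78.6), beside 25% over all coding genes. The chaperone interval includes 25%. In the integrated stress response, which adjusts gene expression when translation is throttled, its main transcription factor gene ATF4 had a RUVBL2 peak of 3583 bp over an INO80 peak of 3563 bp, and DDIT4 (3351 bp) and the amino acid transporter gene SLC38A2 (1688 bp) followed. ATF3 (2198 bp), ASNS (1220 bp) and SESN2 (1188 bp) had INO80 alone. Of 29 immediate-early genes, 16 held both, with EGR1, KLF2 (4907 bp) and JUND (3425 bp) widest, and 10 INO80 alone, with FOSL2, EGR2 (3568 bp) and EGR3 (2461 bp) widest. FOSB held RUVBL2 alone (188 bp). Chaperone genes held both at 11 of 29, led by CALR (1610 bp), HSP90AB1 and HSPA9 (1171 bp), and INO80 alone at 16, led by the divergent pair HSPD1 and HSPE1 on a single peak (1905 bp) and CCT3 (1207 bp). Of 20 glycolysis and lactate genes 8 held both, with TPI1, GAPDH (5043 bp) and PKM (1015 bp) widest, and 6 INO80 alone, with ENO2 (1404 bp), PGAM1 (1065 bp) and SLC16A1 (1032 bp) widest.

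Respiratory chain genes mostly held INO80 alone. DNA replication and repair genes held INO80 alone more often than both, as did all coding genes (35.8% against 11.9%). Of 50 respiratory chain and ATP synthase genes, 9 held both, led by NDUFS7 (692 bp), NDUFA10 (506 bp) and COX8A (296 bp), and 35 INO80 alone, led by ATP5PF (1526 bp), CYC1 (1353 bp) and ATP5F1B (1131 bp). The shares were 18% and 70%, beside 11.9% and 35.8% of all coding genes. Among genes with INO80, RUVBL2 was at 9 of 44 respiratory chain genes (20.5%, 11.2 to 34.5), 16 of 39 DNA replication genes (41.0%, 27.1 to 56.6) and 11 of 34 DNA repair genes (32.4%, 19.1 to 49.2), beside 25% over all coding genes. DNA replication genes divided into 16 with both, 23 with INO80 alone and 4 with neither of 44. CDT1 (1772 bp), MCM7 (1649 bp) and MCM4 (1289 bp), which license and unwind origins, had the widest RUVBL2 peaks, and RFC3 (964 bp), ORC4 (874 bp) and RRM1 (853 bp) the widest INO80 peaks alone. The RUVBL2 peak at MCM4 is the same peak as at PRKDC, so this site counts in the R2TP, DNA replication and DNA repair lists. The polymerase delta gene POLD1 held RUVBL2 alone (555 bp, chr19:50887449-50888003). Of 44 DNA repair genes 11 held both, led by H2AX (1732 bp), PRKDC and FANCA (411 bp), and 23 INO80 alone, among them MDC1 (2208 bp) and BARD1 (1543 bp).

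Hepatocyte secreted, HOX, neuronal, blood and other developmental genes held both at a smaller share than the 11.9% of all coding genes, and hepatocyte transcription factor genes at a larger one. Among genes with INO80 these lists differed. RUVBL2 was at 3 of 9 hepatocyte secreted genes (33.3%, 12.1 to 64.6) and 6 of 16 hepatocyte transcription factor genes. It was at 1 of 16 HOX, 1 of 7 blood, 0 of 6 neuronal and 0 of 35 other developmental genes, beside 25% over all coding genes. Of 44 hepatocyte secreted and metabolic genes, APOB (530 bp), TF (331 bp) and AMBP (150 bp) held both, 6 held INO80 alone, led by CYP27A1 (997 bp), F2 (950 bp) and FGG (445 bp), and 35 held neither. Hepatocyte transcription factor genes held both at 6 of 20, led by CEBPA (3362 bp), CEBPB (1624 bp) and GATA6 (1280 bp), and INO80 alone at 10, led by ONECUT1 (5530 bp), ONECUT2 (2537 bp) and NR5A2 (2493 bp). The ONECUT1 peak overlapped a RUVBL2 peak of 281 bp that lay more than 1 kb from a coding start. Of 39 HOX genes 15 held INO80 alone, led by HOXC10 (1500 bp), HOXD1 (1283 bp) and HOXD13 (1052 bp). HOXC9 held both, with a RUVBL2 peak of 274 bp inside the narrower (925 bp) of its INO80 peaks and none under the wider (1791 bp). Of 30 blood and immune genes CD68 held both (627 bp of RUVBL2) and 6 INO80 alone, led by KIT (1471 bp), CD14 (1178 bp) and CD8A (970 bp). Of 30 neuronal genes none held RUVBL2 and 6 held INO80, led by GAD1 (3372 bp), GRIN2A (2247 bp) and TUBB3 (1009 bp).

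Of 88 other developmental regulators, transcription factor genes of the LHX, PAX, SOX, FOX and related families, 35 held INO80 alone and 53 neither. LHX4, RFX4 and ZIC2 (4091 bp) had the widest INO80 peaks. These peaks were not narrow: 21 of the 35 genes had an INO80 peak in the widest quintile of the list, of 991 bp or more, and none of the 21 had RUVBL2. Over all coding genes, 1154 of 2805 with an INO80 peak of that width had RUVBL2, as did 45 of 55 ribosomal protein, 26 of 29 SR and hnRNP, 28 of 28 histone and 3 of 11 respiratory chain genes. In HepG2, 10 of the 88 held both and 50 INO80 alone. YY1 in Huh7 was at 19 of the 88 and MCRS1 at 3, beside 10199 and 4323 of all 19785 coding genes. Of the 79 ribosomal protein genes they were at 78 and 61. These counts are not limited to genes with INO80, which 53 of the 88 lacked and all 79 ribosomal protein genes held.

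**Figure D5:**
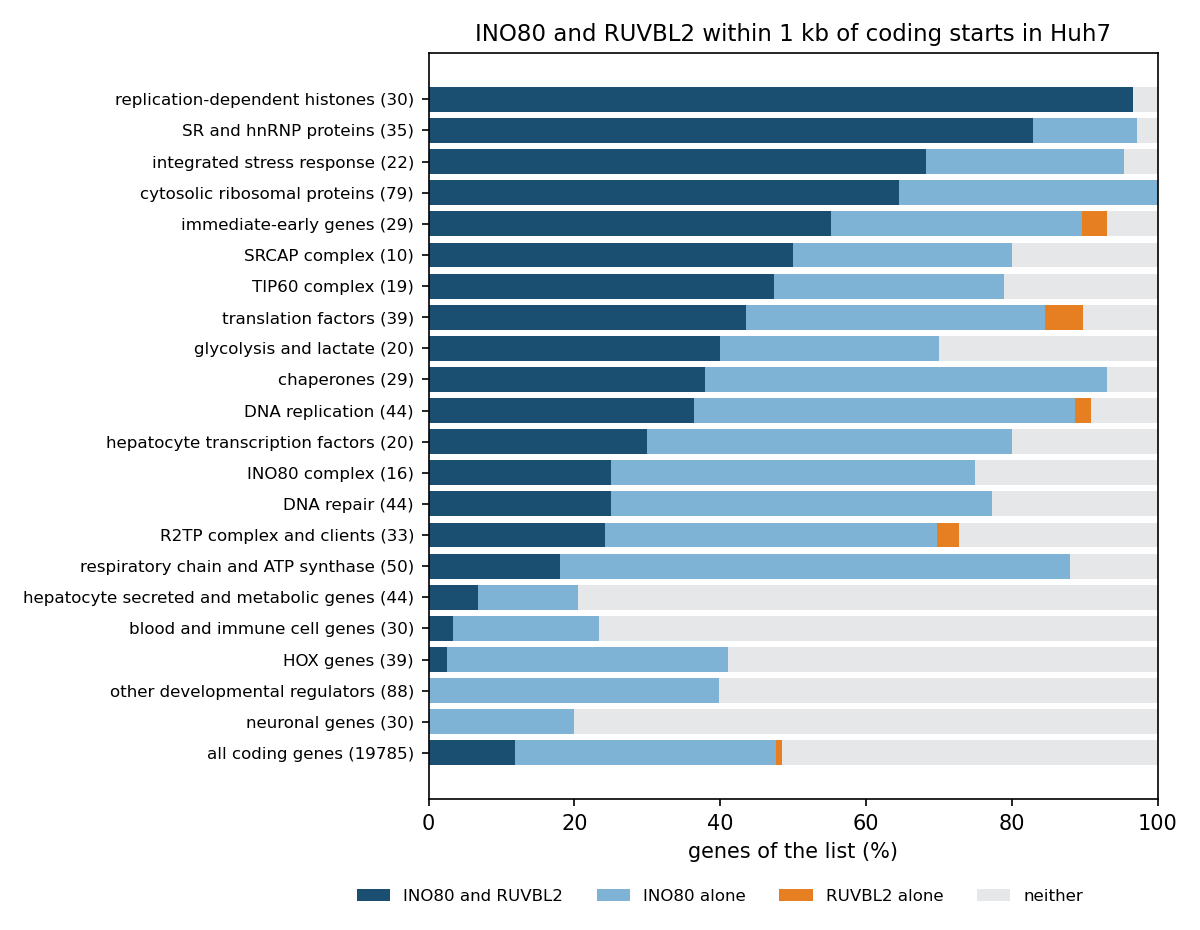
Share of the genes of each list, in %, with INO80 and RUVBL2, INO80 alone, RUVBL2 alone or neither within 1 kb of a coding start in Huh7. The number of genes is in parentheses and all 19785 coding genes are at the bottom; 29 of 30 histone genes hold both and none of 88 other developmental regulators does.

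By chromosome, RUVBL2 was at 31.4% of INO80 peaks on chromosome 19 (28.5 to 34.4), 26.7% on 16, 26.1% on 17 and 24.3% on 11. It was at 8.87% on 13, 8.58% on 18 and 5.99% on X (3.28 to 10.7), where 10 of 167 INO80 peaks met RUVBL2. Chromosome 19 also held 123 of the 642 RUVBL2-alone peaks, against none on chromosome 13. These were of 435 and 26 RUVBL2 peaks on the 2 chromosomes. The share of coding genes with both factors spread less among these autosomes, from 17.4% on chromosome 19 to 6.90% on 13. Of all chromosomes it was largest on chromosome 20, at 19.6%.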

How the data were processed

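Chromatin immunoprecipitation of INO80 and RUVBL2 from Huh7 cells was compared through the peak lists that the authors deposited, 1 per factor and line, each giving hg19 positions only. The submitters' processing notes name Bowtie2, SAMtools, deepTools, MACS2 and bedtools and the builds hg19 and dm3, without versions. Whether peaks were called per library or pooled, the threshold and the input are not given in the sources used here; the lists hold no depth. Peaks on chromosomes 1 to 22, X and Y were kept. Coding starts were the 55871 starts of basic protein-coding transcripts of GENCODE 44 lifted to hg19. Overlaps of at least 1 bp, Wilson and Newcombe intervals at 95% and motif matches were computed with Python 3.11.15, numpy 2.4.6 and pandas 2.3.3, and the overlap code was tested on simulated peaks. The 21 gene lists had 752 entries, of which 748 matched by symbol and 2 through an older symbol in RefSeq. The members and lists were chosen with earlier results of these data known. Genes were named by peak width: the 10 widest of each class, all genes of the INO80, SRCAP, TIP60 and R2TP lists, and of each further list the 3 widest RUVBL2 peaks with both factors, the 3 widest INO80 peaks alone and every gene with RUVBL2 alone. A few genes that this rule names are not reported here. No test was possible with 1 list per factor. Alternatives changed the overlap rule, the peak width, the number of INO80 peaks, the distance to a start and the chromosomes used. The lists of MCRS1 and YY1 in HepG2 and the fly chromatin files were not used here.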

Additional observations from a re-analysis of the deposited data

How the results depend on the processing

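The shares depended on the overlap rule and on peak width. INO80 peaks with RUVBL2 were 17% at 1 bp, 6.55% when at least 50% of the peak had to be covered, 11.5% with centres within 250 bp, 9.78% with peaks of 200 bp and 39.5% over as many of the widest INO80 peaks as the RUVBL2 list holds. RUVBL2 peaks with INO80 were 80.7%, then 75.1%, 52.8%, 45.1% and 43.1% in that order, and 77.6% over the wider 50% of each list. With the widest INO80 peaks, 1226 genes held both, 1796 INO80 alone and 1277 RUVBL2 alone, and with the starts of all annotated genes 228 held RUVBL2 alone. Differences between INO80 peaks with and without RUVBL2 fell within quintiles of width, to 5.47 points at coding starts, 26.6 for YY1, 41.9 for MCRS1 and 9.84 for HepG2 INO80. With peaks of 200 bp they were 20.5 for YY1, 36.7 for MCRS1 and 15.5 for HepG2 INO80. Over the widest INO80 peaks they were -2.54 at coding starts, which reverses the direction with an interval that includes 0, 24.5 for YY1 and 4.18 for HepG2 INO80. The other 23 values, among them all 9 with autosomes only, kept their direction, but not all stayed close to the main ones. With the starts of all 61897 annotated genes, 3373 held both and 10132 INO80 alone, beside 2359 and 7077 of the 19785 coding genes. Both factors were at 2703 coding genes with starts within 5 kb. RUVBL2 alone was at 188 with peaks of 200 bp, beside 144. No paired analysis was possible because each factor has 1 peak list with no values per library, and for the same reason no library could be left out. The depth of the libraries is unknown, so a place without a listed peak may hold signal under the threshold.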
